A study of Rattus norvegicus with 36 samples.

Results

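Bile acid synthesis was followed in rat liver through 10 genes: the classical pathway enzymes Cyp7a1 and Cyp8b1, the alternative pathway enzymes Cyp27a1 and Cyp7b1, the shared-step enzymes Hsd3b7 and Akr1d1, the conjugating enzymes Slc27a5 and Baat, the bile acid receptor gene Nr1h4, and Nr0b2. The genes were chosen by name, with earlier results of these data known. All 10 of 10 were measured, on 11 of the 31042 probe sets tested, each annotated with that gene alone; Akr1d1 had 2. Male Sprague Dawley rats, 7 weeks old at the start, were gavaged for 5 days with corn oil alone (vehicle) or with corn oil carrying HCDBCO (hexachlorocyclopentadienyl-dibromocyclooctane), a halogenated flame retardant. The daily dose was 541 mg/kg in the highest group, then 54.1, 5.41 and 0.54 mg/kg, and 0.05 mg/kg in the lowest. Left liver lobes were taken 1 day after the last dose, and there were 6 samples per group, 36 in all. No genotype, transgene or second agent is named for any group.

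Bile acids are made from cholesterol in hepatocytes. In the classical pathway Cyp7a1 adds a hydroxyl group to the steroid ring as the first and rate-limiting step, and Cyp8b1 adds the hydroxyl group that makes cholic acid. The alternative pathway starts at the side chain with the mitochondrial enzyme Cyp27a1 and continues through the oxysterol hydroxylase Cyp7b1. Bile acids activate FXR, the product of Nr1h4, which induces SHP, the product of Nr0b2, and SHP represses Cyp7a1; hepatic Cyp7a1 also follows feeding and the time of day.

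Values are the authors' RMA values, taken as log2, so a difference of 1 is a doubling. Array medians lay between 5.06 and 5.16. The array of 54.1 mg/kg replicate 5 stood apart in its distribution, with a lower quartile of 3.79 and an upper quartile of 6.94, the highest and the lowest of the 36 arrays. The 9 measured hepatocyte markers averaged between 13.00 and 13.32 in each sample, and 0 of them passed limma's FDR in any comparison (2 of 9 on the trend at an unadjusted p under 0.05, beside 12% of all probe sets). Because whole liver was measured, fewer cells of a type and less RNA per cell cannot be told apart. Animals are not numbered in the labels; the spread behind each p-value is that of the samples as deposited and may be technical.

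None of the 10 members passed a false discovery rate (FDR) of 5% at any dose, in a trend over the doses, or in limma's F-test over the 6 groups. As background over all probe sets, limma called 0% at each of the 3 lowest doses, 0.0741% at 54.1 mg/kg, 0.155% at 541 mg/kg, 0.715% on the linear trend and 0.0999% by the F-test. At an unadjusted limma p under 0.05 the members counted were 0, 1 and 1 of 10 at the 3 lowest doses, where 3.02%, 4.18% and 4.83% of all probe sets were. At that unadjusted threshold there were 4 of 10 members at 54.1 mg/kg beside 9.2% of all probe sets, and 3 of 10 at 541 mg/kg beside 9.07%. On the trend there were 4 of 10 beside 12%, and by the F-test 2 of 10 beside 5.99%. No member's dose group was free of overlap with vehicle at any dose, as 0.0773% to 0.744% of probe sets were. Exact permutation p-values below are two-sided and unadjusted, for single values; the smallest that 6 against 6 can give is 0.00216. The members' median difference from vehicle was 0.07, 0.08, 0.10, 0.13 and 0.04 in order of dose, where the median of all probe sets lay between 0.00 and 0.01.

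**Figure D1:**
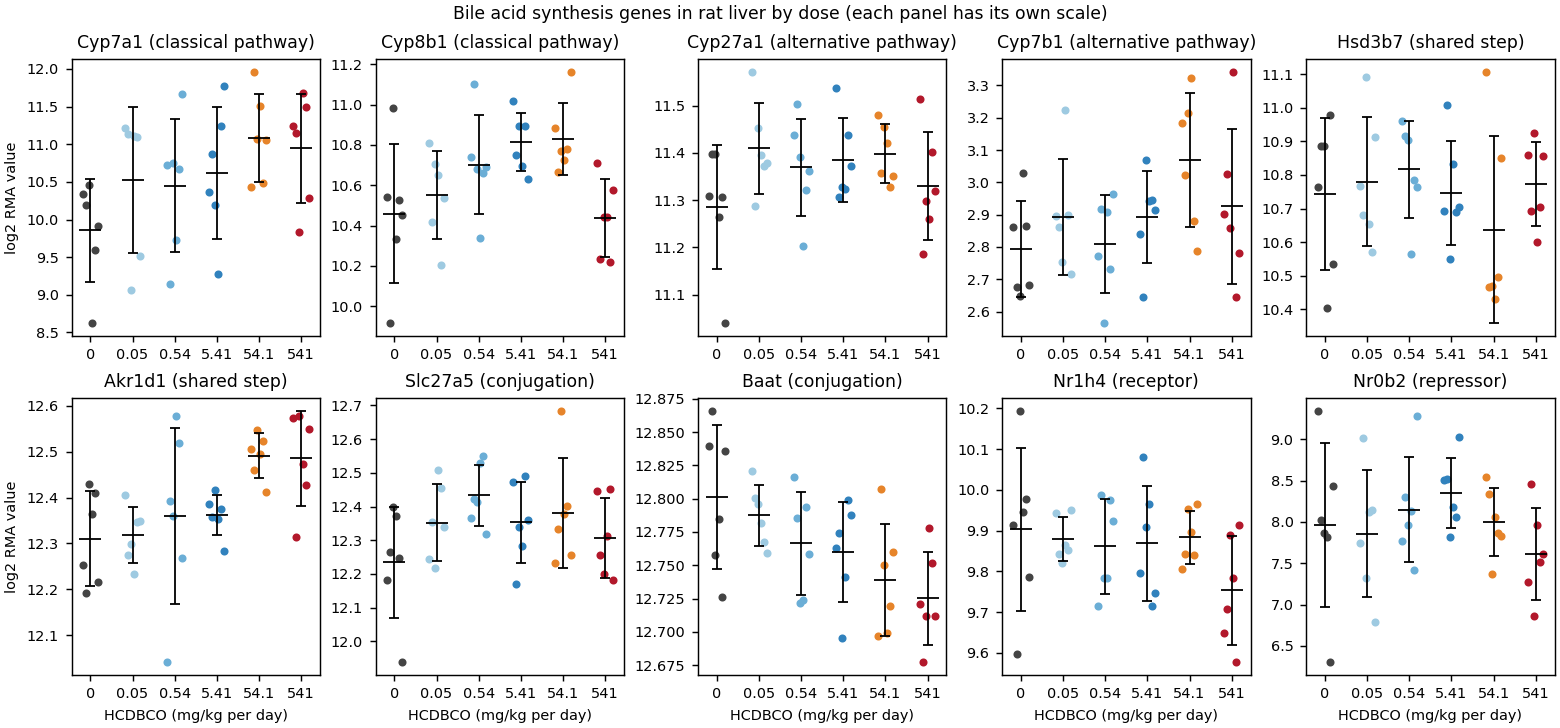
Log2 RMA values of the 10 genes (vertical axes, each panel on its own scale) against HCDBCO dose in mg/kg per day (horizontal axes, 0 is vehicle); points are samples, bars the mean and SD of 6. Cyp7a1 runs from 8.62 to 11.96 and every dose group overlaps vehicle, while the Baat panel spans 12.68 to 12.87.

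Cyp7a1 had the largest differences from vehicle of the members at each dose. Its log2 values in vehicle had a lowest of 8.62, a median of 10.05 and a highest of 10.46. At 0.05 mg/kg the lowest, median and highest were 9.06, 11.10 and 11.21, and at 0.54 mg/kg they were 9.14, 10.70 and 11.66. At 5.41 mg/kg they were 9.27, 10.62 and 11.77. Every dose group thus reached above the highest vehicle sample, and the 3 lowest doses each also held samples within the vehicle range.

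The lowest values were higher at the 2 highest doses. At 54.1 mg/kg Cyp7a1 had a lowest of 10.43, a median of 11.06 and a highest of 11.96, and 5 of 6 samples lay above every vehicle sample. At 541 mg/kg the values were 9.83, 11.19 and 11.68, with 4 of 6 samples above every vehicle sample. In order of group mean, vehicle (9.85) came before 0.54 mg/kg (10.45), 0.05 mg/kg (10.52), 5.41 mg/kg (10.62), 541 mg/kg (10.95) and 54.1 mg/kg (11.08). Neighbours in that order differed by 0.59 or less, and the SDs within groups were 0.59 to 0.97.

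The Cyp7a1 mean at 54.1 mg/kg was 2.34-fold that of vehicle, a log2 difference of 1.23 ± 0.42 (limma standard error; 95% interval 0.37 to 2.09), with 6 of 6 samples above the vehicle mean. Its limma p was 0.00643 and its Benjamini-Hochberg adjusted p over all probe sets 0.333; the exact permutation p of this single value was 0.00433. At 541 mg/kg the mean was 2.13-fold that of vehicle (1.09 ± 0.42, 95% interval 0.23 to 1.95, limma adjusted p = 0.382, exact permutation p = 0.026), with 5 of 6 samples above the vehicle mean. The differences at 0.05, 0.54 and 5.41 mg/kg were 0.67, 0.59 and 0.76, each ± 0.42. The trend was 0.21 ± 0.07 per dose step (limma adjusted p = 0.180). Between 541 and 54.1 mg/kg Cyp7a1 differed by -0.14 ± 0.42.

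Vehicle replicate 4, the lowest Cyp7a1 value of all 36 samples, moved these differences. Without it the difference was 0.98 at 54.1 mg/kg and 0.84 at 541 mg/kg, and 0.42, 0.35 and 0.52 at the 3 lower doses, a change of over 1.5 times at 0.05 and 0.54 mg/kg. Without the array that stood apart, 54.1 mg/kg replicate 5, the difference at 54.1 mg/kg was 1.35 (limma adjusted p = 0.308). Each dose is set against the same 6 vehicle samples, so the 5 differences are not independent of one another.

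Cyp7a1 varied widely inside every group. Its residual SD of 0.80 was larger than that of 99.8% of probe sets, and its 36 values spanned 10.1-fold. Replicates at 0.05 mg/kg separated, with 4 samples between 11.09 and 11.21 and the others at 9.06 and 9.52. The other classical enzyme, Cyp8b1, had a residual SD of 0.23, larger than 91.8% of probe sets.

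Cyp8b1, the sterol hydroxylase that sets the share of cholic acid, had a different dose pattern, and its promoter is shown with those of Cyp27a1 and Nr0b2. Of the 10 members, 6 have a promoter in the RefSeq table (assembly GRCr8), and these are the 3 whose 250 bases before the start site hold the letters CAAGGNCA on either strand; Cyp7a1 is not among the 6. LRH-1, the product of Nr5a2, is a known activator of bile acid synthesis genes. CAAGGNCA, with any base at N, is a loose form of the pattern LRH-1 binds. It is in capitals below, as TGACCTTG where it lies on the opposite strand, and each line reads 5′ to 3′ along the gene. The windows are chr8:130457593-130457842 on the minus strand, chr9:83713282-83713531 on the plus strand and chr5:151062910-151063159 on the plus strand.
Cyp8b1: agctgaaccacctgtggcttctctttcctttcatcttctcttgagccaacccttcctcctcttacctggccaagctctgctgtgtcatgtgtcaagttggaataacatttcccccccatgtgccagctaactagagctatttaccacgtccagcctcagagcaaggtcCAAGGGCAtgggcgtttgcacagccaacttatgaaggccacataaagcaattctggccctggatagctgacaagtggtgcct
Cyp27a1: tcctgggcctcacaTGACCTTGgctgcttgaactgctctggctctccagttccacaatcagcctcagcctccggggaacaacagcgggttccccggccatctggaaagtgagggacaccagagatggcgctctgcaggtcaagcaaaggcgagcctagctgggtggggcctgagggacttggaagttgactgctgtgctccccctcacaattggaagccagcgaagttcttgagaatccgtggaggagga
Nr0b2: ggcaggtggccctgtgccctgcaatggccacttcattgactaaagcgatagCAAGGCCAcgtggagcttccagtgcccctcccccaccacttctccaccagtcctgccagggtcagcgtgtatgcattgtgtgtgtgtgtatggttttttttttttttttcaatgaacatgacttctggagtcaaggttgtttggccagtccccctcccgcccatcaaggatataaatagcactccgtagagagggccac
The matches begin 82, 236 and 199 bases before the start site. For Cyp27a1 the table's start site lies inside the gene's annotated span, so that window is not upstream of every Cyp27a1 transcript. Of 33469 promoter windows of this length in the table, 5.58% hold the pattern, so a match describes letters and is not a mapped site. The inverted repeat of AGGTCA with 1 base between its arms, known as IR-1, a pattern of FXR with its partner RXR, was in 0.0269% of windows and in none of the 6.

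The Cyp8b1 values in vehicle had a lowest of 9.92, a median of 10.49 and a highest of 10.98. Medians were 10.59 at 0.05 mg/kg, 10.69 at 0.54 mg/kg, 10.82 at 5.41 mg/kg and 10.77 at 54.1 mg/kg, and 10.44 at 541 mg/kg. All 6 samples at 5.41 mg/kg (10.63 to 11.02) and all 6 at 54.1 mg/kg (10.67 to 11.16) lay above the vehicle mean, and 5 of 6 in each group lay within the vehicle range.

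Cyp8b1 differed from vehicle by 0.36 ± 0.13 at 5.41 mg/kg (limma adjusted p = 0.977, exact permutation p = 0.0303) and 0.37 ± 0.13 at 54.1 mg/kg (limma adjusted p = 0.319, exact permutation p = 0.0367). At 541 mg/kg the difference from vehicle was -0.02 ± 0.13. Set directly against 54.1 mg/kg, Cyp8b1 at 541 mg/kg differed by -0.39 ± 0.13 (95% interval -0.65 to -0.14), and 5 of 6 samples lay below every sample at 54.1 mg/kg. That difference had an exact permutation p of 0.00433 and a limma adjusted p of 0.786, and 0.00322% of all probe sets were called between these 2 doses. At an unadjusted limma p under 0.05, 1 of 10 members, Cyp8b1, was counted there, beside 4.76% of all probe sets. In that comparison 9 of 10 members had the lower mean at 541 mg/kg, and Hsd3b7 was the exception at 0.14 ± 0.11. The members' median was -0.10, where that of all probe sets was 0.00. Of the 9, Cyp7a1 (-0.14 ± 0.42), Akr1d1 (-0.005 ± 0.06), Slc27a5 (-0.07 ± 0.08) and Baat (-0.01 ± 0.04) differed by less than their standard error.

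In the alternative pathway Cyp27a1, which oxidises the sterol side chain, varied little. Its vehicle values ran from 11.04 to 11.40 around a median of 11.31, and medians at the doses lay between 11.31 and 11.39. Its differences from vehicle were 0.12, 0.08, 0.10, 0.11 and 0.04 in order of dose, each ± 0.06. The lowest value of all 36 was vehicle replicate 6, and without it the differences were 0.07, 0.03, 0.05, 0.06 and -0.005.

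Cyp7b1, which hydroxylates oxysterols, read between 2.56 and 3.34 in all 36 samples, near the low end of the array's values (1.94 to 14.7). A probe set so dim can understate a change. Vehicle ran from 2.65 to 3.03 with a median of 2.77, and 54.1 mg/kg from 2.79 to 3.32 with a median of 3.10. The difference at 54.1 mg/kg was 0.27 ± 0.10 (limma adjusted p = 0.374, exact permutation p = 0.0325), and at 541 mg/kg it was 0.13 ± 0.10, or 0.05 without 541 mg/kg replicate 4.

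Classical and alternative genes were also set against each other inside each sample, as a description without a test. The Cyp7a1 minus Cyp27a1 value was 0.54, 0.51 and 0.67 above its vehicle mean at the 3 lowest doses, 1.12 above at 54.1 mg/kg and 1.05 above at 541 mg/kg. Its SD was 0.65 in vehicle and 0.60 to 0.98 at the doses. Cyp7a1 minus Cyp7b1 was 0.95 above its vehicle mean at 54.1 mg/kg and 0.96 above at 541 mg/kg, with an SD of 0.80 in vehicle. Cyp7b1 read near the low end of the array's values, which limits what this subtraction can show of the alternative pathway. Cyp8b1 minus Cyp27a1 was 0.26 above its vehicle mean at 5.41 and at 54.1 mg/kg, and -0.07 from it at 541 mg/kg, with an SD of 0.37 in vehicle. Cyp27a1 itself differed from vehicle by at most 0.12. The Cyp7a1 minus Cyp27a1 and Cyp8b1 minus Cyp27a1 pairs were added after values had been seen.

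**Figure D2:**
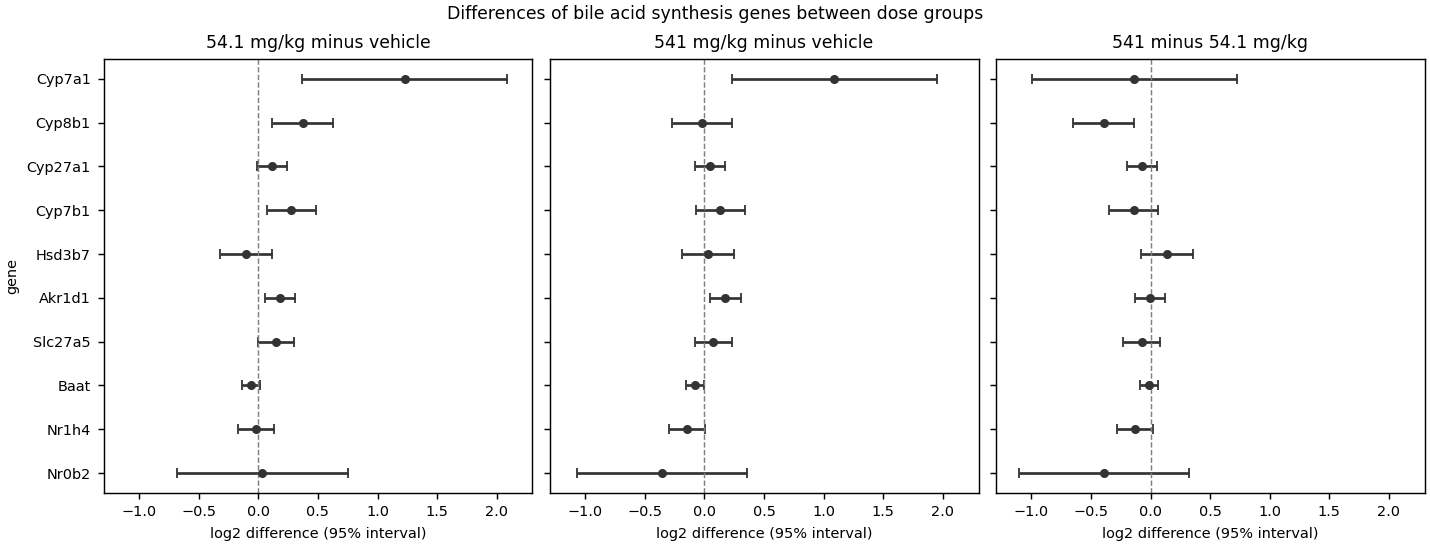
Log2 difference (horizontal axis) of each of the 10 genes (vertical axis) for 54.1 mg/kg minus vehicle, 541 mg/kg minus vehicle and 541 minus 54.1 mg/kg; points are limma differences and bars 95% intervals. Cyp7a1 lies at 1.23 and 1.09 against vehicle, and Cyp8b1 at 0.37, -0.02 and, between the 2 doses, -0.39.

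The shared steps are carried by Hsd3b7, which oxidises the steroid ring after the first hydroxylation, and by Akr1d1, the reductase that sets the bent ring shape of bile acids. Akr1d1 came closest of all members to the threshold. Its vehicle values had a lowest of 12.19, a median of 12.31 and a highest of 12.43. Medians at 0.05, 0.54 and 5.41 mg/kg were 12.32, 12.38 and 12.37. At 54.1 mg/kg the values were 12.41, 12.50 and 12.55, and at 541 mg/kg 12.31, 12.51 and 12.58, so that 5 and 4 of 6 samples lay above every vehicle sample.

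Akr1d1 differed from vehicle by 0.18 ± 0.06 at 54.1 mg/kg (limma adjusted p = 0.350, exact permutation p = 0.00433) and by 0.18 ± 0.06 at 541 mg/kg (limma adjusted p = 0.332, exact permutation p = 0.0216). Its trend was 0.04 ± 0.01 per dose step, with a limma adjusted p of 0.0706. This value fell under 0.05 under 3 other settings of the test, with limma adjusted p between 0.0352 and 0.0399, and in 3 of the 36 fits that left out 1 sample. It was 0.110 with centred arrays and 0.0745 with the replicate block, and reached 0.141 in the fits that left out 1 sample. The second Akr1d1 probe set was noisier, with differences of 0.10 and 0.15 at the 2 highest doses, each ± 0.19, and a trend of 0.04 ± 0.03 (limma adjusted p = 0.674). It read -0.10 and -0.09 at the 2 lowest doses, where the first read 0.01 and 0.05.

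Hsd3b7 had differences between -0.11 and 0.07 at the 5 doses, each ± 0.11. At 54.1 mg/kg 4 of 6 samples read between 10.43 and 10.50, with the others at 10.85 and 11.11, against 10.40 to 10.98 in vehicle. Its groups overlapped throughout.

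Conjugation with taurine or glycine is the last step. Slc27a5, the bile acid CoA ligase, had a vehicle median of 12.26 (lowest 11.94, highest 12.40) and medians of 12.35, 12.42, 12.35, 12.36 and 12.28 in order of dose. Its largest difference, 0.20 ± 0.08 at 0.54 mg/kg, had a limma adjusted p of 0.999. Baat, the transferase that joins the amino acid, was the steadiest member, with a residual SD of 0.04; 0.0838% of probe sets had a smaller one. Baat medians were 12.81 in vehicle and 12.79, 12.77, 12.77, 12.74 and 12.72 in order of dose. The Baat difference at 541 mg/kg was -0.08 ± 0.04 (limma adjusted p = 0.532, exact permutation p = 0.0195), and 6 of 6 samples lay below the vehicle mean.

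The feedback genes Nr1h4 and Nr0b2 differed from each other in spread. Nr1h4 ran from 9.60 to 10.19 in vehicle with a median of 9.93, and from 9.58 to 9.91 at 541 mg/kg with a median of 9.75. Its difference at 541 mg/kg was -0.15 ± 0.07 (limma adjusted p = 0.554, exact permutation p = 0.152), or -0.09 without vehicle replicate 3, and at the other doses it lay between -0.04 and -0.02. Nr0b2, the repressor that FXR induces, ran in vehicle from 6.30 to 9.35 with a median of 7.95, and its vehicle group alone held both the lowest and the highest value of all 36. Medians were 7.93, 8.05, 8.34, 7.96 and 7.56 in order of dose. Nr0b2 differences from vehicle ran from -0.36 at 541 mg/kg to 0.38 at 5.41 mg/kg, each ± 0.35, and the residual SD of 0.66 exceeded that of 99.7% of probe sets. Leaving out vehicle replicate 1 or 5 moved the difference at 541 mg/kg to -0.08 or -0.69, and that at 5.41 mg/kg to 0.66 or 0.05.

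Cyp7a1 was set against each other member over the 36 samples, which share the dose groups. Of 9 pairs none had a Benjamini-Hochberg adjusted permutation p under 0.05. The largest Pearson's r was that of Nr0b2, at 0.33 (permutation p = 0.0469, adjusted 0.304) with a Spearman's rho of 0.26 (permutation p = 0.119, adjusted 0.268). By rho, Hsd3b7 at -0.34 (permutation p = 0.0419, adjusted 0.215; r = -0.27) and Nr1h4 at -0.33 (permutation p = 0.0477, adjusted 0.215; r = -0.28) were larger in size. For Nr0b2 with each group's mean removed r was 0.45 (adjusted permutation p = 0.0986), and without vehicle replicate 4 and 0.05 mg/kg replicate 3, farthest from the median in Cyp7a1, it was 0.31. Cyp7a1 and Cyp8b1, of the same pathway, had an r of 0.03, which became -0.13 within groups. Akr1d1 had an r of 0.03 with Cyp7a1, and -0.32 within groups. Among other pairs, given as description, Cyp8b1 with Cyp27a1 had r = 0.48 (0.43 within groups), Cyp8b1 with Nr1h4 0.47 (0.51) and Akr1d1 with Baat -0.60 (-0.41).

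The genes whose pattern was most like that of Cyp7a1 were sought among 9555 genes at or above the median level, by Pearson's r over the 36 samples, and are given as description. The highest were the transcription factor gene Sall1 (0.75), the lysosomal transporter gene Abcb9 (0.72), the cholesterol ester hydrolase gene Nceh1 (0.72), the cell death gene Bcl2l11 (0.71) and the ephrin gene Efna5 (0.71). Larger values were inverse: Slc25a30, a mitochondrial carrier, had r = -0.87, Phf23, a PHD finger protein, -0.85 and Smad1, a signal carrier of BMP receptors, -0.83, and within groups these were -0.85, -0.83 and -0.79. In all, 52 genes had an r below -0.7 and 7 one above 0.7. The sample lowest in Cyp7a1, vehicle replicate 4 at 8.62, read 11.02 for Slc25a30, and the highest, 54.1 mg/kg replicate 2 at 11.96, read 8.35.

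Some transcription regulators were looked up after these values had been seen. Jun, a component of the AP-1 factor, had r = -0.78 with Cyp7a1, Cebpb -0.77, Id3 -0.77 and Midn -0.82. Among other early response genes Tiparp was at -0.80, Klf10 at -0.72, Atf3 at -0.68, Dusp1 at -0.58, Ier2 at -0.57 and Junb at -0.22. Egr1 was at 0.49 and Ier3 at -0.01. Fos, at 0.01, read below the array medians. Sertad1 was at -0.70, Gadd45a at -0.16, Klf6 at 0.10 and Myc at 0.14. Of the 16 measured clock genes Bhlhe40, a light- and feeding-responsive repressor, was at -0.76 (-0.70 within groups), followed on the inverse side by Nr1d2 at -0.54 and Nfil3 at -0.47, with Nr1d1 at -0.21, Dbp at 0.20 and Cry1 at 0.52. Bhlhe40 itself differed from vehicle by -0.81 at 54.1 mg/kg (limma adjusted p = 0.299) and -0.53 at 541 mg/kg (adjusted p = 0.554). The hour of tissue collection and feeding before it were not analysed here, and their part in the spread of Cyp7a1 was not tested.

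**Figure D3:**
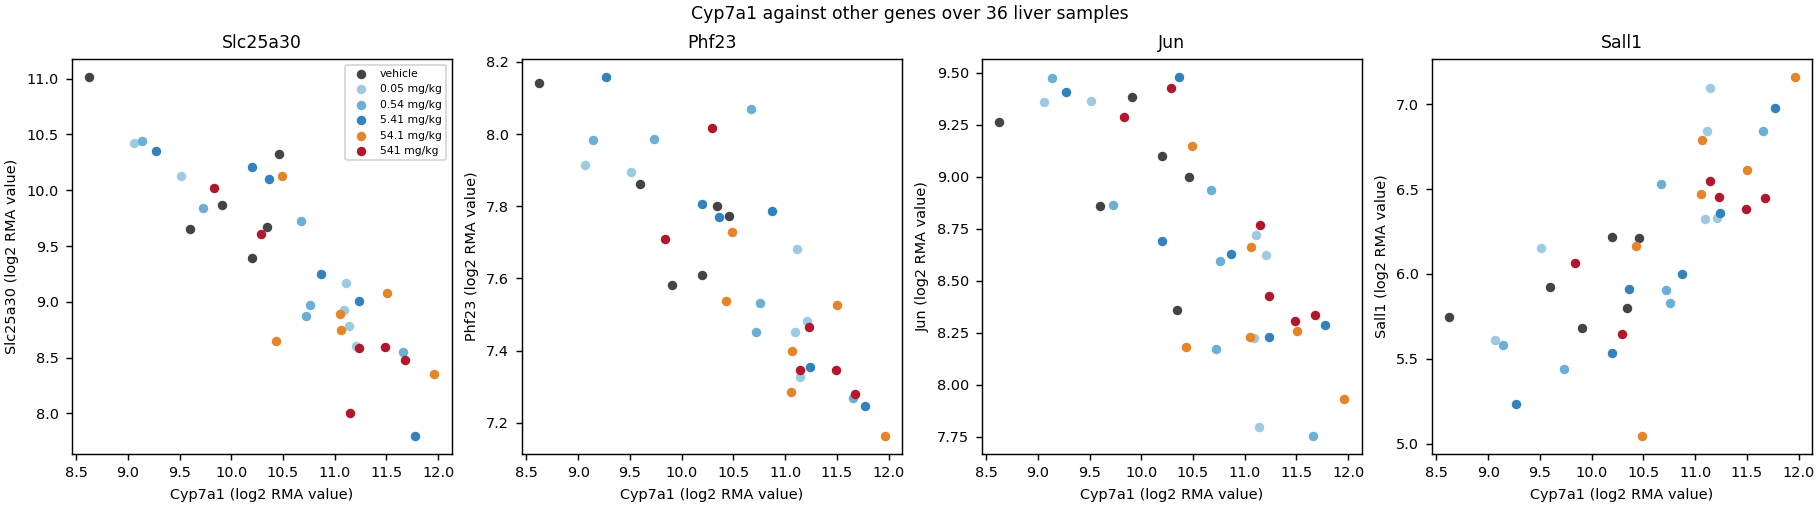
Log2 RMA values of Slc25a30, Phf23, Jun and Sall1 (vertical axes) against Cyp7a1 (horizontal axes) in the 36 samples, coloured by dose group. The first 3 are lower where Cyp7a1 is higher (r = -0.87, -0.85 and -0.78) and Sall1 is higher there (r = 0.75). Along Cyp7a1, vehicle samples lie between 8.62 and 10.46 and those of 54.1 mg/kg between 10.43 and 11.96.

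The rest of the pathway was read from gene lists. Of 16 measured genes for other steps of bile acid synthesis, 0 passed limma's FDR at any dose. At an unadjusted limma p under 0.05 there were 0 to 4 per dose, beside 3.02% to 9.2% of all probe sets. Their median trend per step was 0.00, as was that of all probe sets. On the trend 1 rose and 0 fell, beside 0.341% and 0.374% of all probe sets. The gene was Por, the reductase that supplies electrons to microsomal P450 enzymes such as Cyp7a1 and Cyp8b1. Por had a vehicle median of 8.38 (8.11 to 8.90) and a median of 8.87 at 541 mg/kg (8.44 to 9.17), and its trend was 0.08 ± 0.02 per step (limma adjusted p = 0.0403). Its second probe set gave 0.04 ± 0.02 (adjusted p = 0.397), and the call was lost with arrays centred on their medians (adjusted p = 0.0538) and in 12 of 36 fits without 1 sample, so 24 kept it. Fdx1, the electron donor of mitochondrial Cyp27a1, differed by 0.34 ± 0.09 at 54.1 mg/kg (adjusted p = 0.167) and 0.28 at 541 mg/kg (adjusted p = 0.268). Amacr, the racemase of side-chain shortening, differed by -0.17 at 541 mg/kg (adjusted p = 0.493).

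A further list covered bile acid and sterol transport, together with enzymes such as Ephx1 and Sult2a6 that are not transporters. Of its 16 measured genes, 1 rose at 54.1 mg/kg, 3 rose at 541 mg/kg, and on the trend 4 rose and 2 fell. Of all probe sets 0.0419% rose and 0.0322% fell at 54.1 mg/kg, 0.116% rose and 0.0387% fell at 541 mg/kg, and 0.341% rose and 0.374% fell on the trend, while the list's median trend was 0.01 beside 0.00 for all probe sets. Abcc3 is a basolateral exporter of conjugated bile acids and other anions. It ran from 4.52 to 5.20 in vehicle (median 5.06) and from 5.79 to 8.04 at 541 mg/kg (median 7.06). At 541 mg/kg it did not overlap with vehicle, as 0.744% of all probe sets did not. It was higher by 1.53 ± 0.28 at 54.1 mg/kg (limma adjusted p = 0.0173) and by 2.14 at 541 mg/kg (adjusted p = 3.53e-05); the first call was lost without vehicle replicate 1 (adjusted p = 0.0513). At 541 mg/kg Ephx1, an epoxide hydrolase of the hepatocyte, was higher by 0.52 (adjusted p = 0.0152, lost in 4 of 12 fits without 1 sample, in which it reached at most 0.0591). Sult2a6, a hydroxysteroid sulfotransferase, was higher by 0.93 (adjusted p = 0.0433), a call that 1 of 12 such fits kept. On the trend Abcc4 also rose, at 0.08 per step (adjusted p = 0.0418; 0.0561 with arrays centred), and 21 of 36 fits without 1 sample kept the call.

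The genes that fell were Abcg5 and Abcg8, the paired half-transporters that move cholesterol into bile, named after their values were seen. Abcg5 in vehicle had a lowest of 8.32, a median of 8.75 and a highest of 9.27. Its medians were 8.64 and 8.70 at the 2 lowest doses, 8.04 at 5.41 mg/kg, 7.43 at 54.1 mg/kg and 8.13 at 541 mg/kg. All 6 samples at 5.41 mg/kg (7.78 to 8.27) lay below every vehicle sample, and at 54.1 mg/kg 4 of 6 did. At 5.41 mg/kg, 0.151% of probe sets did not overlap with vehicle and 0% passed limma's FDR, so Abcg5 was not called there.

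Abcg8 in vehicle ran from 6.61 to 7.79 with a median of 7.47. Its medians were 7.12, 7.20, 6.40, 5.78 and 6.51 in order of dose, the lowest again at 54.1 mg/kg. The trend was -0.20 ± 0.04 per step for Abcg5 (limma adjusted p = 0.00807) and -0.25 ± 0.05 for Abcg8 (adjusted p = 0.0145), and both kept the call in 36 of 36 fits without 1 sample. Against vehicle at 54.1 mg/kg Abcg5 differed by -1.08 ± 0.23 (adjusted p = 0.0575) and Abcg8 by -1.33 ± 0.31 (adjusted p = 0.0936), which missed the threshold. Without 54.1 mg/kg replicate 6, the highest of its group for both, these were -1.32 (adjusted p = 0.0065) and -1.62 (adjusted p = 0.00887). For Abcg5 the adjusted p was also 0.0469 when vehicle replicate 4 was left out, and 0.0234 when the array that stood apart was. Of the 12 fits without 1 sample at 54.1 mg/kg, only 3 for Abcg5 and 1 for Abcg8 passed the FDR. In the others the adjusted p reached 0.189 for Abcg5 and 0.217 for Abcg8. With array weights the limma adjusted p at 54.1 mg/kg was 0.0101 for Abcg5 and 0.025 for Abcg8. Neither passed with centred arrays (0.0512 and 0.0839) or with the replicate block (0.0501 and 0.0702). At 541 mg/kg the means were 8.05 against 8.80 in vehicle for Abcg5 and 6.37 against 7.37 for Abcg8 (adjusted p = 0.223 and 0.218). With group means removed, r with Cyp7a1 was -0.04 for Abcg5 and -0.14 for Abcg8.

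**Figure D4:**
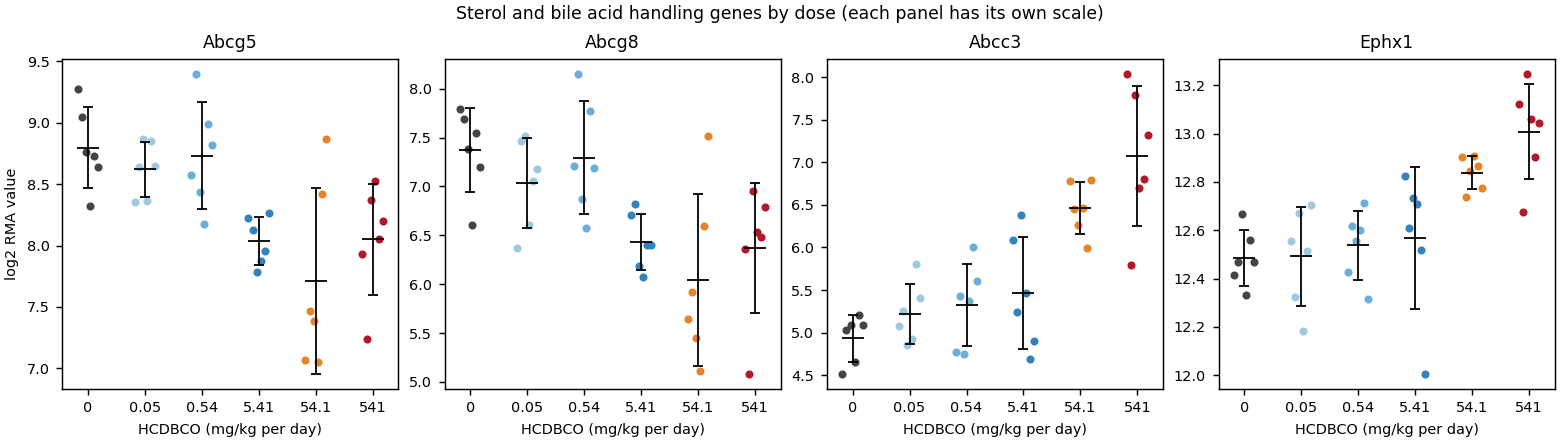
Log2 RMA values of Abcg5, Abcg8, Abcc3 and Ephx1 (vertical axes, each on its own scale) against HCDBCO dose in mg/kg per day (0 is vehicle); points are samples, bars the mean and SD of 6. Median Abcg5 is 8.75 in vehicle and 7.43 at 54.1 mg/kg, and median Abcc3 5.06 in vehicle and 7.06 at 541 mg/kg.

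Of 15 measured regulators of bile acid synthesis, 0 passed limma's FDR in any comparison. At an unadjusted limma p under 0.05 there were 3 at 541 mg/kg and 5 on the trend, beside 9.07% and 12% of all probe sets. The 3 with the smallest p at 541 mg/kg were Mafg, a repressor induced by FXR, at 0.17 (limma adjusted p = 0.478), Nr1h3, the oxysterol receptor LXR alpha that activates rodent Cyp7a1, at 0.12 (adjusted p = 0.505), and Nr5a2 at 0.19 (adjusted p = 0.547). Another Mafg probe set read -0.03 and the other Nr5a2 probe sets 0.03 and -0.17. The cholesterol list had 12 measured genes, which were enzymes of cholesterol synthesis with Srebf2 and Insig1, and no uptake gene. Of these 12, the means of 7, 11, 9, 10 and 10 were higher than in vehicle in order of dose. The list's medians were 0.01, 0.14, 0.04, 0.17 and 0.10, beside 0.00 to 0.01 for all probe sets. Past limma's FDR 1 of the 12 rose at 54.1 mg/kg, where 0.0419% of all probe sets did. The gene was Nsdhl, at 0.32 ± 0.07 (adjusted p = 0.0381); its other probe set gave 0.23 (adjusted p = 0.216), and the call was lost with arrays centred (adjusted p = 0.0838) and kept in 3 of 12 fits without 1 sample. Sc5d and Dhcr7, at 0.15 and 0.19 at 541 mg/kg, had adjusted p of 0.499 and 0.644. Of the 16 clock genes 0 passed limma's FDR in any comparison (3 on the trend at an unadjusted p under 0.05, beside 12% of all probe sets). At 541 mg/kg Nr1d2 differed by -0.36 (limma adjusted p = 0.573) and Cry2 by 0.16 (limma adjusted p = 0.629). The other Nr1d2 probe sets read 0.03 and -0.49 at that dose, and the other Cry2 probe set -0.01.

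Cyp7a1 is made mainly by hepatocytes around the central vein, so zone markers are given beside it. The 8 pericentral markers averaged 9.53 to 9.75 over vehicle samples and 9.49 to 9.62 at 541 mg/kg, with 0 of 8 past limma's FDR on the trend. At an unadjusted limma p under 0.05 there were 5 of 8 on the trend, beside 12% of all probe sets. At 541 mg/kg there were 4 of 8, beside 9.07%. Directions were mixed, with 3 higher and 5 lower both on the trend and at 541 mg/kg. The 8 periportal markers averaged 10.81 to 11.03 in vehicle and 10.59 to 10.91 at 541 mg/kg. All 8 had a trend below 0, 5 of 8 at an unadjusted limma p under 0.05 beside 12% of all probe sets. Past the FDR 1 fell, Hal, the histidine lyase (-0.07 per step, limma adjusted p = 0.0378), beside 0.374% of all probe sets. Bile duct, Kupffer cell, endothelial, stellate and small intestine markers had 0 past limma's FDR in any comparison (0 to 2 per list on the trend at an unadjusted p under 0.05, beside 12% of all probe sets). Of 7 exocrine pancreas markers 1, Pnlip, rose on the trend (0.06 per step, limma adjusted p = 0.0254), beside 0.341% of all probe sets. At 541 mg/kg all 5 measured endothelial markers were lower than in vehicle, with a median of -0.18. Of these, 3 of 5 had an unadjusted limma p under 0.05, beside 9.07% of all probe sets. The endothelial list averaged 8.12 to 8.54 in vehicle samples and 8.01 to 8.24 at 541 mg/kg. The pancreas list averaged 4.73 to 4.87 in vehicle and 4.69 to 4.91 at 541 mg/kg. The part of zone or cell make-up in the values of Cyp7a1 was not tested.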

How the data were processed

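Liver RNA of 36 samples was measured on Affymetrix 3′ expression arrays for rat, 1 array each. Per the submitters' processing notes, the authors made the deposited values, taken here as log2 values, with RMA and the affy package, in versions not given in the sources used here. RMA corrects background, normalises arrays to one another and summarises each probe set. Raw intensities were not analysed here. Of 31099 probe sets the 57 controls were left out. Gene names came from the platform annotation, and a gene was represented by its probe set with the highest mean.

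Groups came from the sample titles. The study's design names vehicle against dose, tested with a different R package at that FDR, 5%; here limma 3.58.1 in R 4.3.3 fitted 6 group means over 36 samples without covariates. Compared were vehicle with every dose, the 2 highest doses with each other, and a linear trend over dose order (scores 0 to 5), two-sided, with Benjamini-Hochberg adjustment over 31042 probe sets. Unless stated otherwise an adjusted p is limma's, n = 6 per group, and a difference is followed by ± its standard error from limma. The median standard error of a difference was 0.08. Correlations used 100000 permutations. No batch is named in the labels. The procedure was tested on simulated data.

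The members, lists and tests were chosen with earlier results of these data known. Named genes outside the members were, per pathway list, the 3 with the smallest p at 541 mg/kg and all past the FDR against vehicle. The 5 highest and 3 lowest in correlation with Cyp7a1 among genes at or above the median level were also named. Abcg5, Abcg8, Abcc4, Pnlip, Hal, Jun, Cebpb, Id3, Midn, Fos, Ier3, Tiparp and Klf10 were named after their values were seen. So were Atf3, Dusp1, Ier2, Junb, Egr1, Sertad1, Gadd45a, Klf6, Myc, Nfil3, Nr1d1, Dbp and Cry1. Alternatives tried were a filter on dim probe sets, array weights, centred arrays, other empirical Bayes settings, the replicate block, fits of only the groups compared, and leaving out each sample.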

Additional observations from a re-analysis of the deposited data

Results flagged for a closer look

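In 66 checks, each of 1 probe set of the members in 1 group of 6, 2 samples lay far from the others of their group, where chance flags about 1 in 20. Cyp7b1 in 0.05 mg/kg replicate 4 read 3.22, and the nearest sample of its group 2.90. Slc27a5 in 54.1 mg/kg replicate 3 read 12.68, and the nearest sample of its group 12.40.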

How the results depend on the processing

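The count of members past the FDR on the trend went from 0 to 1, Akr1d1 each time, with a filter on dim probe sets, with array weights and with trended, robust empirical Bayes, and it ranged from 0 to 1 when single samples were left out (1 without 0.54 mg/kg replicate 1, 0.54 mg/kg replicate 4 or 541 mg/kg replicate 2); the cause was not tested. The correlation of Cyp7a1 with Cyp8b1 turned to -0.13, and that with Akr1d1 to -0.32, when values were centred on their group means. Of 1080 values from fits without 1 sample and 470 from other alternatives, 44 and 10 changed sign, none of which had exceeded its standard error in the full fit, and 3 and 3 came past the FDR. Over all probe sets, fits without 1 sample called 5 to 36 at 54.1 mg/kg (23 in the full fit), 18 to 63 at 541 mg/kg (48), 85 to 272 on the trend (222) and 17 to 41 by the F-test (31); array weights gave 64, 80, 376 and 53 in that order, the dim filter 38, 79, 382 and 46, and fits of only the groups compared 43 at 54.1 mg/kg and 31 at 541 mg/kg. Deviations of samples with the same replicate number had a mean r of 0.01 over 90 pairs, with 24 above 0.1 and a highest of 0.23. Of 36 samples, 7 were closest to their own number. No pairing by number was seen in these values, and what the numbers stand for was not tested. With the replicate block Cyp7a1 at 54.1 mg/kg kept its difference of 1.23 (adjusted p = 0.346), and the trend called 212 probe sets. Cyp7b1 read near the low end of the array's values, which limits what could be measured of it.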
